A study of Rattus norvegicus with 4 samples.

Results

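The genes described here are a set of 10 neutrophil granule and alarmin genes in rat blood, chosen by name out of the 25340 genes listed. They are S100a8, S100a9, Camp, Ltf, Lcn2, Mmp8, Ngp, Fcnb, Pglyrp1 and Lyz2. The data are droplet single-cell RNA-seq with 1 library in each of 4 groups. The study used 40 rats, 10 per group. Rats of the MSC-i.t group had a spinal cord injury by Allen's method and received umbilical cord mesenchymal stromal cells intrathecally at 1e+07 cells/kg. Rats of the MSC-i.v group had the same injury and received these cells intravenously at 3e+07 cells/kg. Both groups were dosed 2 times, at 72 hours and 7 days. Rats of the SCI group had the injury without these cells, and rats of the Sham group were the sham controls. How many rats stand behind each library, when blood was drawn, what operation sham rats had, the strain and age of the rats and how the blood cells were prepared are not stated in the labels. The deposited SCI matrix bears another time in its name than the other 3 matrices, so draw time and group cannot be told apart for SCI.

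Neutrophils make their granule proteins while they mature in the bone marrow, and mature neutrophils of the blood carry the finished proteins in granules and in the cytosol. S100A8 and S100A9 pair up as calprotectin, a calcium-binding complex that binds zinc and manganese and, once released, acts as an alarmin at the receptors TLR4 and RAGE. Classical monocytes also transcribe S100a8, S100a9 and lysozyme, so the transcripts in blood can come from more than 1 cell type. In droplet data, transcripts free in the suspension are also captured in barcodes of cells that do not make them.

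The members were therefore measured in populations set by other genes. Monocytes were barcodes with at least 1 UMI (unique molecular identifier, 1 captured RNA molecule) of Csf1r, split into Fn1/Vcan-high monocytes, with at least 2 UMIs of Fn1 and Vcan together, and Fn1/Vcan-low monocytes below that. T cells were barcodes with at least 2 UMIs of Cd3e, Cd3d and Cd3g together. The level of free RNA was read from barcodes of 10 to 100 UMIs. Levels are CPM, a gene's UMIs divided by all UMIs of the population and scaled to 1e+06. The libraries give no gene lengths, so levels of different genes are not compared beyond the UMIs captured.

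The libraries held 63133881 to 91124523 UMIs and 8105 to 16691 kept barcodes. Fn1/Vcan-high monocytes numbered 213 in MSC-i.t, 645 in MSC-i.v, 122 in SCI and 485 in Sham, and Fn1/Vcan-low monocytes 451 in MSC-i.t, 994 in MSC-i.v, 327 in SCI and 668 in Sham. T cells numbered 5823 to 9233 per library, and barcodes of 10 to 100 UMIs held 651277 UMIs in MSC-i.t, 2494455 in MSC-i.v, 149286 in SCI and 474147 in Sham. Fn1/Vcan-high monocytes held all 7 classical monocyte markers, summing to 4508 to 4811 CPM against 991 to 1157 CPM in Fn1/Vcan-low monocytes. T cells held all 6 T cell markers listed in the files. Csf1r, Fn1 and Vcan are among these classical monocyte markers, and Cd3e, Cd3d and Cd3g among the T cell markers. The rules thus partly set these values, which are no independent check of the populations. The populations were not pure, since 11.5 to 20.2% of Fn1/Vcan-high and 18.7 to 27.5% of Fn1/Vcan-low monocytes also passed the T cell rule. Hemoglobin transcripts, which come from red cells, made up 0.580 to 2.57% of UMIs in Fn1/Vcan-high monocytes, 4.82 to 7.68% in Fn1/Vcan-low monocytes, 1.18 to 4.56% in T cells and 5.62 to 14.7% in barcodes of 10 to 100 UMIs. Pairs of libraries shared 25 to 49 kept barcodes. Cells are not replicates of a group, so no test was made between libraries and their ratios compare a pair of libraries, not treatments. Differences between populations were tested over the 4 libraries with the library as a block, and there the 4 groups serve as the replicates.

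Promoters of 5 members are shown because these genes divide between cells in the data below. With the libraries pooled, Fcnb and Lyz2 were read mainly in Fn1/Vcan-high monocytes, Ngp and Lcn2 mainly in granulocyte-marker barcodes, and S100a9 in both. Each sequence is from RefSeq, build GRCr8, and runs 5′ to 3′ on the gene's strand from 250 bases before the start of transcription to 50 bases after it. Capitals mark matches on either strand to TTGCNNAA, the core bound by C/EBP factors, to GAGGAA, a core bound by ETS factors such as PU.1, and to TATAAA, the TATA box. 
S100a9 (chr2:178490573-178490872, minus strand): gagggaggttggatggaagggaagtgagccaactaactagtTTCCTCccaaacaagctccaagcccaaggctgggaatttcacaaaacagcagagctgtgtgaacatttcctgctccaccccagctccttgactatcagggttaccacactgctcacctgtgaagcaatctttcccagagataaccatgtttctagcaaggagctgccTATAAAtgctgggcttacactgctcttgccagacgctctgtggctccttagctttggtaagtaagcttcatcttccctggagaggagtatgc
Fcnb (chr3:31800139-31800438, minus strand): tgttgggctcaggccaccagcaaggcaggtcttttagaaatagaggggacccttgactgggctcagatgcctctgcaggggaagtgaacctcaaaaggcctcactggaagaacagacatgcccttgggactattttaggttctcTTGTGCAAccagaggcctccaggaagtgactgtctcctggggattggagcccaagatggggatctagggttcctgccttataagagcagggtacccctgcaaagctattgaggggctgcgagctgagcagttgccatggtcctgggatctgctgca
Lyz2 (chr7:54797962-54798261, minus strand): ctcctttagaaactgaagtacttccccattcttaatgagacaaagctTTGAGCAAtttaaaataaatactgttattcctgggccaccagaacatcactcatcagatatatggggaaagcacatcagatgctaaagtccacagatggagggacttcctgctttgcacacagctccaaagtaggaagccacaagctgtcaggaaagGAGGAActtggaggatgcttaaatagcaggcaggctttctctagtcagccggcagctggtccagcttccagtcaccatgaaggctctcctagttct
Ngp (chr8:119272355-119272654, plus strand): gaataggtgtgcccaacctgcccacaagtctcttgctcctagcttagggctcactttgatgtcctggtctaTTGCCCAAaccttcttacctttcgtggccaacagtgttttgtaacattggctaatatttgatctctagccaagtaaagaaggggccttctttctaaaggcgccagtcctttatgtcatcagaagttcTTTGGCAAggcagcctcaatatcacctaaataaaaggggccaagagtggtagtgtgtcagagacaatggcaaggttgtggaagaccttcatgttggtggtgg
Lcn2 (chr3:36081731-36082030, minus strand): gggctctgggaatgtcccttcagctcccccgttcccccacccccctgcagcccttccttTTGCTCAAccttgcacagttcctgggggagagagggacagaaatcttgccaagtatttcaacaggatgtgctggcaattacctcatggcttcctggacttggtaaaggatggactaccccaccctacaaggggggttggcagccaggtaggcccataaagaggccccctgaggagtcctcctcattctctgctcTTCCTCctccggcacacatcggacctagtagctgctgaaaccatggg

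Of the 10 members, 9 had a promoter in the table, and S100a8 was not listed there. TTGCNNAA was found in 5 of these 9 promoters and in 10.5% of all 27457 promoters of this length. GAGGAA was found in 4 of 9 and in 27.5% of all, and TATAAA in 2 of 9 and in 14.3% of all. Fcnb had 1 match to TTGCNNAA and Ngp had 2. Lyz2 and Lcn2 each had 1 match to TTGCNNAA and 1 to GAGGAA, and S100a9 had 1 to GAGGAA and 1 to TATAAA. Camp and Pglyrp1, which with the libraries pooled were also read mainly in granulocyte-marker barcodes, had 0 matches to TTGCNNAA, and Mmp8 had 2. A match does not show that a factor binds there.

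With the libraries pooled, the members fell into 3 patterns by where their UMIs were found. Over the 4 libraries, Fn1/Vcan-high monocytes held 80.1% of Fcnb UMIs and 61.5% of Lyz2 UMIs, with a further 14.1% of Lyz2 in Fn1/Vcan-low monocytes. Granulocyte-marker barcodes, kept barcodes with at least 5 UMIs of Mmp9, Cd177 and Retnlg together, held 90.4% of Ngp, 89.5% of Lcn2, 73.4% of Camp, 70.0% of Mmp8 and 67.2% of Pglyrp1 UMIs. MSC-i.t and SCI held 0 such barcodes, so the UMIs counted there come from MSC-i.v and Sham. In MSC-i.t, Fn1/Vcan-high monocytes held 37.6% and Fn1/Vcan-low monocytes 31.2% of 93 Camp UMIs, and in SCI 28% and 17.3% of 75. Of Mmp8, Fn1/Vcan-high monocytes held 62.5% of 16 UMIs in MSC-i.t and 27.3% of 11 in SCI. T cells outside the other rules held 62.5% of 24 Pglyrp1 UMIs in MSC-i.t and 49.1% of 53 in SCI. S100a8 and S100a9 were split, with 33.5% and 38.7% of their UMIs in granulocyte-marker barcodes and 31.1% and 23.4% in Fn1/Vcan-high monocytes. Granulocyte-marker barcodes held 0.0343% of all UMIs in the libraries and Fn1/Vcan-high monocytes 3.84%. Ltf followed neither, with 80.4% of its 194 UMIs in T cells, which held 51.3% of all UMIs. The threshold that sets granulocyte-marker barcodes was chosen after the data were seen.

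**Figure D1:**
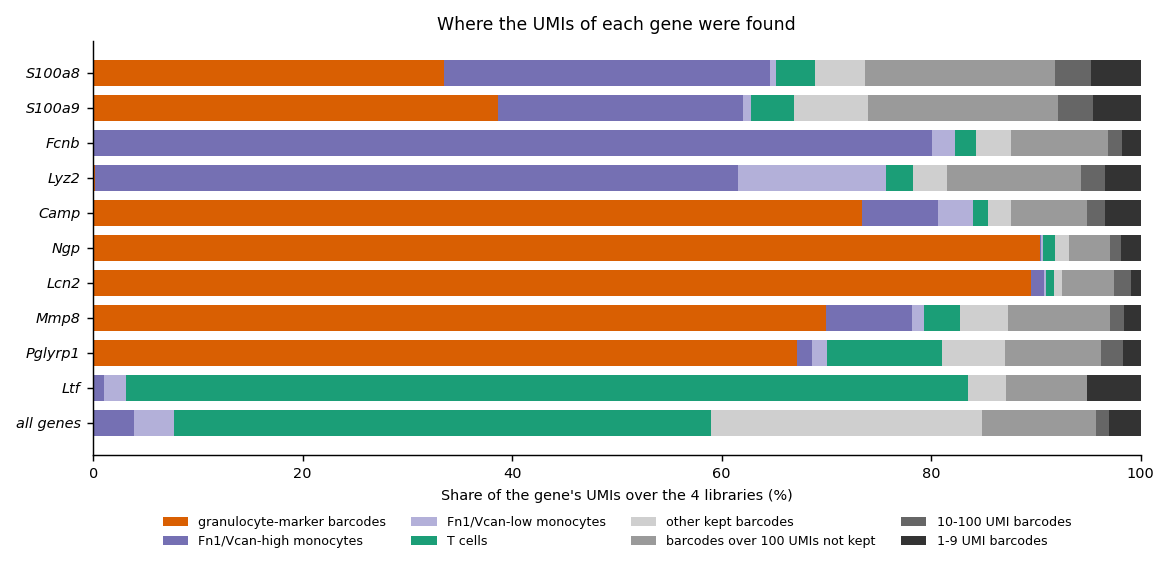
Share of each gene's UMIs, in percent over the 4 libraries, by kind of barcode, without overlap between kinds. The orange parts, granulocyte-marker barcodes, reach 90.4% for Ngp and 33.5% for S100a8, while Fcnb and Lyz2 lie mainly in Fn1/Vcan-high monocytes (80.1% and 61.5%).

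The granulocyte-marker barcodes were few. There were 17 in all, 11 in MSC-i.v and 6 in Sham, with 0 in MSC-i.t and 0 in SCI. S100a8, with a median of 646 UMIs per barcode, and S100a9, with a median of 714, were above 0 in 16 of 17. Camp, the precursor of the cathelicidin antimicrobial peptide, had a median of 127 UMIs, and Ngp, the neutrophilic granule protein of the cystatin superfamily known from mouse, had a median of 54 and was above 0 in 11 of 17. Medians were 13 UMIs for Lcn2, the siderophore-binding lipocalin that withholds iron from bacteria, 24 for Mmp8, the neutrophil collagenase, and 22 for Pglyrp1, a peptidoglycan-binding protein. The 10 members together made up a median of 32.9% of a barcode's UMIs, with a range of 0.282 to 51.2%.

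These barcodes differed among themselves. In 5 of the 16 barcodes with S100a8, Ngp was at 0, and these 5 held 0 to 10 UMIs of Camp and 7 to 48 of Retnlg, a resistin-like gene of mature neutrophils. The other 11 held 52 to 839 UMIs of Camp and 0 to 24 of Retnlg, so the Retnlg ranges overlapped. Retnlg is also part of the rule for these barcodes. One Sham barcode held 25 Retnlg UMIs with S100a8 and S100a9 at 0. A single Sham barcode with 839 Camp UMIs held 50.6% of the Camp UMIs of the Sham library. Fcnb totalled 1 UMI and Ltf 0 UMIs in all 17, and the primary granule genes Mpo, Elane, Prtn3 and Ctsg were at 0. Cebpe, the C/EBP factor of late granulocyte maturation, was found in 12 of 17. UMIs of the Cd3 genes were found in 6 of 17, so 4 granulocyte-marker barcodes of MSC-i.v and 2 of Sham also counted as T cells, and 1 of MSC-i.v and 1 of Sham as Fn1/Vcan-low monocytes.

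**Figure D2:**
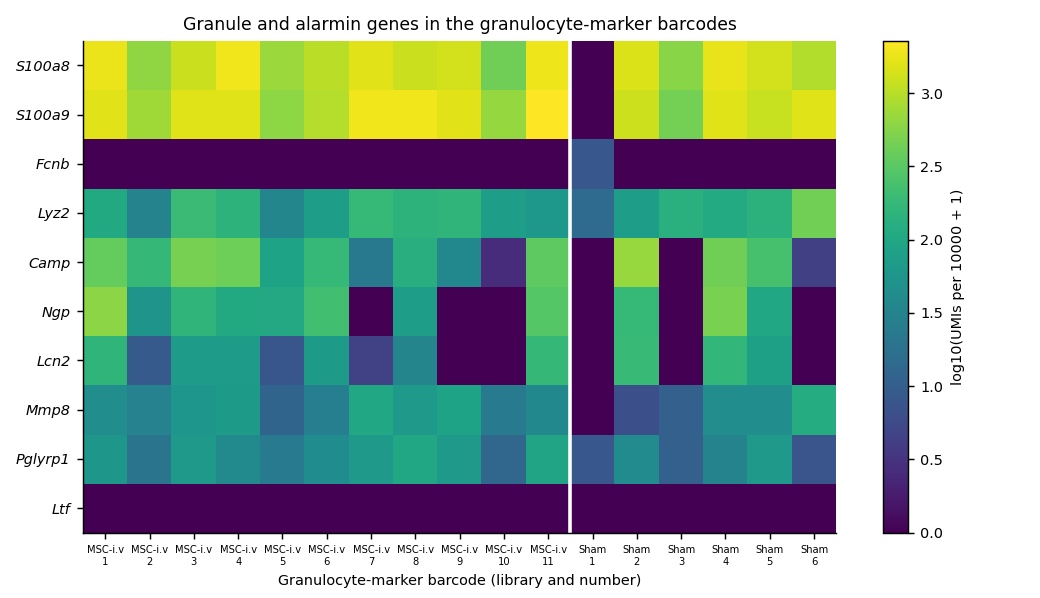
Members (rows) in each of the 17 granulocyte-marker barcodes (columns, 11 of MSC-i.v and 6 of Sham), coloured by log10 of UMIs per 10000 plus 1. S100a8 and S100a9 are high in 16 barcodes, Ngp is above 0 in 11, and Fcnb and Ltf total 1 and 0 UMIs.

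Among the alarmins, S100a8 was read in Fn1/Vcan-high monocytes of every library, and its level differed between libraries. It stood at 1060.4 CPM in MSC-i.t, 537 in MSC-i.v, 410.4 in SCI and 1387 in Sham in these monocytes. The 95% Poisson interval was widest for SCI in proportion, at 371 to 452 CPM. The share of these monocytes with at least 1 S100a8 UMI was 52.6% in MSC-i.t, 39.2 in MSC-i.v, 29.5 in SCI and 58.1 in Sham. Sham and MSC-i.t were high and MSC-i.v and SCI low. The Fn1/Vcan-low monocytes held 4.71 CPM in MSC-i.t, 262 in MSC-i.v, 1.19 in SCI and 138 in Sham. MSC-i.v and Sham were high there, and 1 barcode held 87.8% of the S100a8 UMIs in MSC-i.v and 86.3% in Sham, which in each was a granulocyte-marker barcode. The barcodes of 10 to 100 UMIs held 186 CPM in MSC-i.t, 319 in MSC-i.v, 46.9 in SCI and 639 in Sham. Each library had more S100a8 in Fn1/Vcan-high monocytes than in these barcodes.

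S100a9, the partner of S100a8, stood at 773 CPM in MSC-i.t, 283 in MSC-i.v, 273 in SCI and 947 in Sham in Fn1/Vcan-high monocytes. Among Fn1/Vcan-low monocytes the level was 2.75 CPM in MSC-i.t, 235 in MSC-i.v, 1.19 in SCI and 105 in Sham, and in barcodes of 10 to 100 UMIs at 166 CPM in MSC-i.t, 265 in MSC-i.v, 46.9 in SCI and 567 in Sham. In MSC-i.v the Fn1/Vcan-high monocytes had 1.07 times the S100a9 level of these barcodes. Against barcodes of 1 to 9 UMIs, a choice made after seeing the data, they had 2.23 times the level. Those barcodes held 52.5 CPM in MSC-i.t, 127 in MSC-i.v, 29.0 in SCI and 323 in Sham for S100a9 and 56.1 CPM in MSC-i.t, 157 in MSC-i.v, 26.0 in SCI and 392 in Sham for S100a8. In SCI, 1 barcode held 74.9% of the S100a9 UMIs of the Fn1/Vcan-high monocytes, 203 of 271. Without the top barcode of each library the levels were 535 CPM in MSC-i.t, 222 in MSC-i.v, 69.7 in SCI and 787 in Sham. For S100a8 they were 846 CPM in MSC-i.t, 496 in MSC-i.v, 235 in SCI and 1205 in Sham. SCI was the lowest library with and without these barcodes, and its S100a9 level without the top barcode was 69.7 CPM, against 46.9 CPM in its barcodes of 10 to 100 UMIs.

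UMIs of the alarmins were also concentrated. Of the S100a8 UMIs in Fn1/Vcan-high monocytes, a share of 50% sat in 9 barcodes in MSC-i.t, 18 in MSC-i.v, 2 in SCI and 14 in Sham. The top barcodes of S100a8 and S100a9 there had the same total, 10957 UMIs in MSC-i.t, 6284 in MSC-i.v, 16540 in SCI and 18921 in Sham. The top barcodes of Mmp8 in MSC-i.t (6 UMIs) and MSC-i.v (4) and of Pglyrp1 in SCI (5) had these totals too. Those of Mmp8 in SCI and Sham and of Pglyrp1 in Sham did not. None was a granulocyte-marker barcode, and whether they held neutrophil RNA was not tested. With each barcode thinned to 1000 UMIs, the share of Fn1/Vcan-high monocytes with S100a8 was 26.0% in MSC-i.t, 17.2 in MSC-i.v, 9.95 in SCI and 26.7 in Sham. Among T cells thinned alike it was 0.521% in MSC-i.t, 1.21 in MSC-i.v, 0.281 in SCI and 1.96 in Sham. The monocyte shares exceeded those of T cells in every library. The neutrophil marker list summed to 247 to 266 CPM in Fn1/Vcan-high monocytes, mostly Csf3r and Trem1, with Cxcr1 at 0 in all 4 libraries. It summed to 57.4 to 87.6 CPM in Fn1/Vcan-low monocytes and to 4585 CPM in the granulocyte-marker barcodes of MSC-i.v and 5984 CPM in those of Sham.

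Fcnb encodes ficolin B, a lectin that starts the lectin pathway of complement and is known in mouse from bone marrow myeloid cells. It stood at 2894 CPM in MSC-i.t, 2759 in MSC-i.v, 2458 in SCI and 3534 in Sham in Fn1/Vcan-high monocytes. The share of these monocytes with at least 1 Fcnb UMI was 80.8% in MSC-i.t, 78.3 in MSC-i.v, 71.3 in SCI and 86.0 in Sham. In Fn1/Vcan-low monocytes it stood at 24.0 CPM in MSC-i.t, 132 in MSC-i.v, 38.0 in SCI and 90.3 in Sham, and in barcodes of 10 to 100 UMIs at 109 CPM in MSC-i.t, 158 in MSC-i.v, 73.7 in SCI and 221 in Sham. The 4 libraries' Fn1/Vcan-high monocytes did not overlap with any other population, while the Fn1/Vcan-low monocytes and the barcodes of 10 to 100 UMIs overlapped.

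Lyz2 encodes lysozyme, which cleaves bacterial peptidoglycan and is a textbook marker of monocytes and neutrophils. It stood at 37488 CPM in MSC-i.t, 34393 in MSC-i.v, 36221 in SCI and 39657 in Sham in Fn1/Vcan-high monocytes. Its level in Fn1/Vcan-low monocytes was 7933 CPM in MSC-i.t, 10102 in MSC-i.v, 7243 in SCI and 7776 in Sham, and in barcodes of 10 to 100 UMIs at 2839 CPM in MSC-i.t, 4479.9 in MSC-i.v, 2056 in SCI and 6089 in Sham. Both kinds of monocytes were above the barcodes of 10 to 100 UMIs in each library. At least 1 Lyz2 UMI was found in 99.8 to 100% of Fn1/Vcan-high and 76.1 to 90.8% of Fn1/Vcan-low monocytes. Lyc2, another lysozyme gene in the files, had at most 22 UMIs per library in Fn1/Vcan-high monocytes. How reads shared by such copies were counted was not tested, so they leave the Lyz2 level uncertain by an unknown amount.

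**Figure D3:**
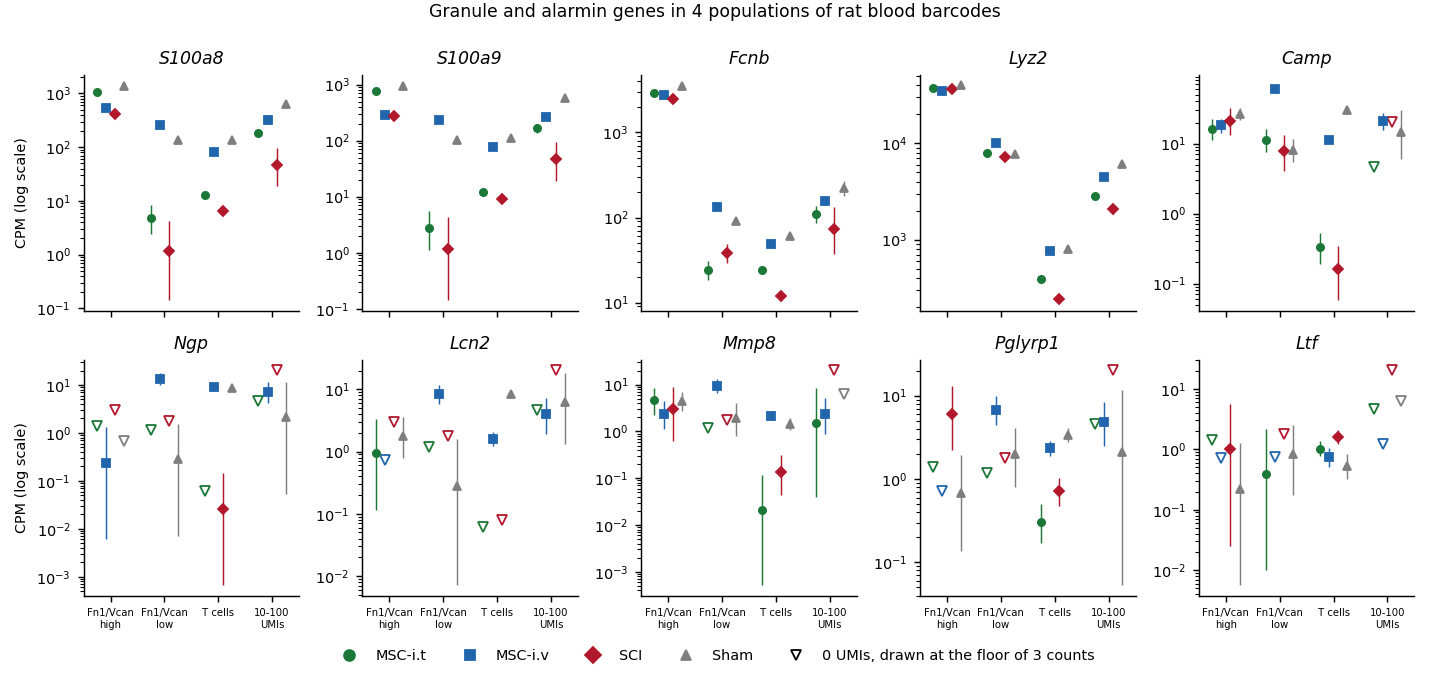
CPM of the 10 members (log scale) in 4 populations of each library, with exact Poisson 95% intervals. Open triangles mark 0 UMIs, drawn at the floor of 3 counts. Fcnb and Lyz2 are highest in Fn1/Vcan-high monocytes of all 4 libraries, and Camp, Ngp, Lcn2, Mmp8 and Pglyrp1 in T cells are higher in MSC-i.v and Sham than in the other 2 libraries.

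The specific granule members were near the limit of detection in monocytes. Camp stood at 16.4 CPM in MSC-i.t, 18.2 in MSC-i.v, 21.2 in SCI and 26.7 in Sham in Fn1/Vcan-high monocytes, with a UMI in 9.77 to 15.7% of them, and no granulocyte-marker barcode was among these. Fn1/Vcan-low monocytes had 11.4 CPM in MSC-i.t, 60.1 in MSC-i.v, 7.72 in SCI and 8.18 in Sham, and MSC-i.v stood at 11.2 CPM with granulocyte-marker barcodes left out. Ngp had 1 UMI in Fn1/Vcan-high monocytes of MSC-i.v and 0 in those of MSC-i.t, SCI and Sham, where 0 counts allow up to 1.41 CPM in MSC-i.t, 3.02 in SCI and 0.673 in Sham. Ngp in Fn1/Vcan-low monocytes had 0 UMIs in MSC-i.t, 54 in MSC-i.v, 0 in SCI and 1 in Sham, and 52 of the 54 sat in a granulocyte-marker barcode. Lcn2 had 2 UMIs in MSC-i.t, 0 in MSC-i.v, 0 in SCI and 8 in Sham in Fn1/Vcan-high monocytes. Mmp8 had 10 UMIs there in MSC-i.t, 10 in MSC-i.v, 3 in SCI and 20 in Sham, and Pglyrp1 had 0 in MSC-i.t, 0 in MSC-i.v, 6 in SCI and 3 in Sham. These counts are too low to order the libraries. Among Fn1/Vcan-low monocytes, Mmp8, Lcn2 and Pglyrp1 were at 0 in MSC-i.t and SCI, and had 38, 34 and 27 UMIs in MSC-i.v, of which 6, 0 and 9 remained with granulocyte-marker barcodes left out.

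Ltf encodes lactoferrin, the iron-binding protein of specific granules, and most of its few UMIs lay in T cells. It had 50 UMIs in T cells of MSC-i.t, 31 in MSC-i.v, 61 in SCI and 19 in Sham, which are 1.03 CPM in MSC-i.t, 0.744 in MSC-i.v, 1.62 in SCI and 0.536 in Sham. No barcode held more than 2 Ltf UMIs, and there were 0 in barcodes of 10 to 100 UMIs, where the floor of 3 counts is 1.20 CPM in MSC-i.v and 20.1 CPM in SCI. A level such as that of the T cells could not have been seen at this depth in the barcodes of 10 to 100 UMIs. Barcodes of 1 to 9 UMIs held 2 Ltf UMIs of 2742845 in MSC-i.t and 3 of 1454894 in MSC-i.v. They held 3 of 1691436 in SCI and 2 of 3248186 in Sham. These counts are too low to set the T cells apart from them.

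The test between populations covered 8989 genes, and 9 of the 10 members had enough counts to enter, all but Ltf. The 9 members that passed the filter on low counts had at least 1 population high enough to enter. Of these 9, 4 were higher in Fn1/Vcan-high than in Fn1/Vcan-low monocytes and 1 was lower (edgeR's quasi-likelihood test with Benjamini-Hochberg adjustment), where 18.6% of all genes were called higher and 22% lower. Each SE given with a log2 fold change was derived from the edgeR fit over all 4 populations of the 4 libraries. The log2 fold changes were 3.92 ± 0.63 for S100a8 (edgeR adjusted p = 5.32e-05), 3.43 ± 0.65 for S100a9 (0.000286), 5.58 ± 0.30 for Fcnb (2.36e-11) and 2.20 ± 0.22 for Lyz2 (1.29e-07). Each of the 4 genes was higher in Fn1/Vcan-high monocytes in every library. The lower gene was Ngp (adjusted p = 0.00164), which rests on the 54 UMIs of MSC-i.v, and 0 members were called lower without the MSC-i.v library or without granulocyte-marker barcodes. Without SCI the count was 2, adding Pglyrp1 (adjusted p = 0.00234), and without Sham it was 2, adding Lcn2 (0.0302). Camp (-0.41 ± 0.79), Lcn2 (-2.16 ± 1.25), Mmp8 (0.12 ± 0.73) and Pglyrp1 (-1.90 ± 0.93) did not pass. Without granulocyte-marker barcodes Camp passed, higher in Fn1/Vcan-high monocytes by 1.08 on the log2 scale (edgeR adjusted p = 0.0156), with 16.4 to 26.7 CPM in Fn1/Vcan-high monocytes against 7.72 to 11.4 CPM in Fn1/Vcan-low monocytes without those barcodes. The members that entered had a median log2 fold change of 0.12, against -0.06 over all genes.

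Against barcodes of 10 to 100 UMIs, 3 members were higher in Fn1/Vcan-high monocytes and 1 was lower, with 30.4% of all genes higher and 22.5% lower (edgeR, adjusted). Fcnb was higher by 3.98 ± 0.31 on the log2 scale (adjusted p = 1.2e-09) and Lyz2 by 2.84 ± 0.23 (2e-09). S100a8 was higher by 1.57 ± 0.63 (adjusted p = 0.0409), a call made in 11 of 20 alternatives, with a highest adjusted p of 0.512, and lost without MSC-i.t (0.126) and without SCI (0.101). DESeq2 called 2 members higher, Fcnb and Lyz2. S100a9 differed by 1.09 ± 0.65 and did not pass (adjusted p = 0.165), but passed without MSC-i.v (0.0461). Ngp was the lower gene, with 1 UMI in the Fn1/Vcan-high monocytes of all 4 libraries, against 18 in MSC-i.v and 1 in Sham in the barcodes of 10 to 100 UMIs, and 0 members were called lower without granulocyte-marker barcodes or without MSC-i.v. Without SCI the count was 2, adding Pglyrp1 (adjusted p = 0.00232).

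Fn1/Vcan-low monocytes differed from barcodes of 10 to 100 UMIs in both directions. Lyz2 was higher by 0.64 ± 0.21 on the log2 scale (edgeR adjusted p = 0.0179, and 0.094 without MSC-i.t), the 1 member called higher where 26.3% of all genes were. The 3 members called lower, where 18.5% of all genes were, were S100a8 at -2.35 ± 0.63 (0.00492), S100a9 at -2.34 ± 0.66 (0.00682) and Fcnb at -1.60 ± 0.31 (0.000317). The median over the members that entered was -0.69, against 0.12 over all genes.

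T cells are not known to make the proteins of S100a8, S100a9, Fcnb and Lyz2, yet UMIs of these genes were read in them. S100a8 stood at 12.9 CPM in MSC-i.t, 80.8 in MSC-i.v, 6.47 in SCI and 135 in Sham in T cells, and S100a9 at 11.9 CPM in MSC-i.t, 77.0 in MSC-i.v, 9.28 in SCI and 110.2 in Sham. Lyz2 stood at 389.9 CPM in MSC-i.t, 769 in MSC-i.v, 242 in SCI and 804 in Sham. Fcnb stood at 24.3 CPM in MSC-i.t, 49.4 in MSC-i.v, 11.8 in SCI and 59.9 in Sham. Sham was the highest library for all 4 of these genes and MSC-i.v came next, with SCI the lowest. The share of T cells with at least 1 Lyz2 UMI was 33.9% in MSC-i.t, 45.2 in MSC-i.v, 30.4 in SCI and 62.3 in Sham. B cells were barcodes with at least 2 UMIs of Cd79a, Cd79b and Ms4a1 together, fewer than 2 Cd3 UMIs and no Csf1r UMI. The T cell rule kept barcodes with Csf1r, so the shares of T cells and B cells come from unlike rules. B cells should lack Lyz2 too, and their share was 33.8% in MSC-i.t, 43.4 in MSC-i.v, 30.9 in SCI and 59.9 in Sham. Median depths for T cells were 5813 UMIs in MSC-i.t, 3909 in MSC-i.v, 6074 in SCI and 5254 in Sham. For B cells they were 3019.5 UMIs in MSC-i.t, 2050 in MSC-i.v, 3232 in SCI and 2713 in Sham. For S100a8 the share was 2.28% in MSC-i.t, 4.25 in MSC-i.v, 1.43 in SCI and 8.65 in Sham among T cells. Among B cells it was 1.64% in MSC-i.t, 3.21 in MSC-i.v, 1.63 in SCI and 7.61 in Sham. For both genes and both lymphocyte types the share was highest in Sham and lowest in SCI. Most UMIs of Lyz2 and Fcnb in T cells sat in barcodes that also passed the monocyte or granulocyte-marker rule. Barcodes that passed the T cell rule and neither of these held 15.9% of the Lyz2 UMIs of T cells in MSC-i.t, 18.9 in MSC-i.v, 30.7 in SCI and 21.9 in Sham. For S100a8 the share was 27.6% in MSC-i.t, 10.97 in MSC-i.v, 91.0 in SCI and 11.6 in Sham, so the SCI library stood apart. The SCI value rests on few barcodes, since 1 barcode held 87 of the 244 S100a8 UMIs of its T cells. For S100a9, 1 barcode held 176 of 350 UMIs there. The part of free RNA and of barcodes holding more than 1 cell in these levels was not tested.

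Against barcodes of 10 to 100 UMIs, 0 members were higher in T cells, with 14.4% of all genes higher, and 4 were lower, with 17.8% lower (edgeR, adjusted). At an unadjusted p under 0.05, 0 members were higher by edgeR and 0 by DESeq2. The 4 log2 fold changes were -3.05 ± 0.61 for S100a8 (adjusted p = 0.000635), -2.93 ± 0.63 for S100a9 (0.00136), -2.44 ± 0.30 for Fcnb (3.68e-06) and -3.22 ± 0.23 for Lyz2 (2.43e-09). The median over the members that entered was -1.03, against 0.01 over all genes. Without granulocyte-marker barcodes Camp was also lower in T cells, at -4.89 on the log2 scale (edgeR adjusted p = 1.13e-06).

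The level in T cells relative to barcodes of 10 to 100 UMIs was below 1 for the genes of other cells named here, and differed between them. For Lyz2 the ratio was 0.137 in MSC-i.t, 0.172 in MSC-i.v, 0.118 in SCI and 0.132 in Sham, and for Fcnb 0.222 in MSC-i.t, 0.314 in MSC-i.v, 0.16 in SCI and 0.27 in Sham. For the hemoglobin genes, which T cells do not make, it was 0.172 in MSC-i.t, 0.31 in MSC-i.v, 0.21 in SCI and 0.246 in Sham. The monocyte gene Csf1r had 0.285 in MSC-i.t, 0.299 in MSC-i.v, 0.175 in SCI and 0.293 in Sham, the B cell gene Cd79b had 0.591 in MSC-i.t, 0.455 in MSC-i.v, 0.318 in SCI and 0.562 in Sham, and Cd3e, a T cell gene that is part of the rule, had 2.95 in MSC-i.t, 3.05 in MSC-i.v, 2.61 in SCI and 3.53 in Sham. For S100a8 it was 0.0694 in MSC-i.t, 0.254 in MSC-i.v, 0.138 in SCI and 0.211 in Sham, and with granulocyte-marker barcodes left out 0.0694 in MSC-i.t, 0.0568 in MSC-i.v, 0.138 in SCI and 0.0799 in Sham. Barcodes with any Csf1r, Fn1 or Vcan UMI, with at least 2 B cell UMIs, or with over 5% of UMIs from hemoglobin or platelet genes could be left out of the T cells. The Lyz2 ratio was then 0.0236 in MSC-i.t, 0.0336 in MSC-i.v, 0.0308 in SCI and 0.0312 in Sham. The hemoglobin ratio, which this setting itself limits, was 0.0205 in MSC-i.t, 0.0325 in MSC-i.v, 0.0295 in SCI and 0.0257 in Sham.

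**Figure D4:**
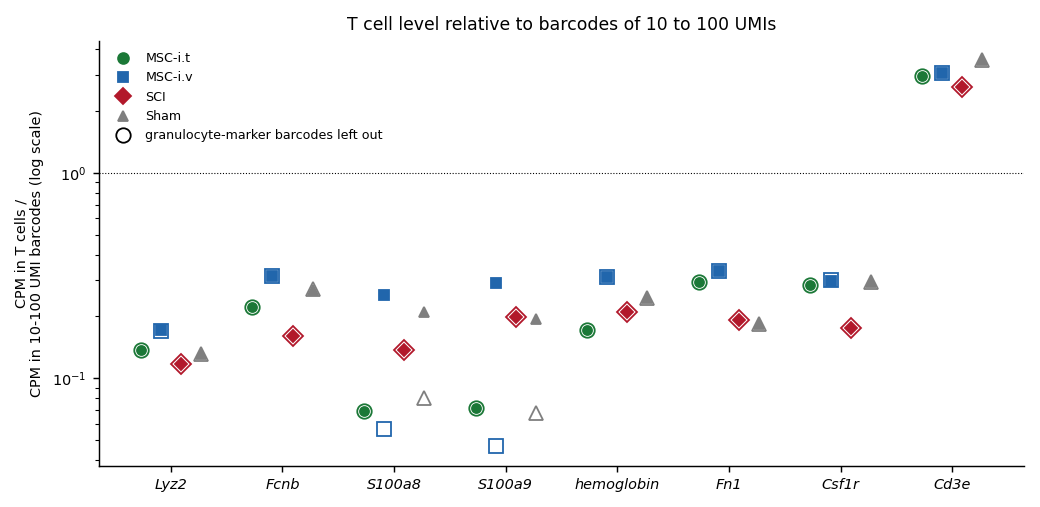
CPM in T cells divided by CPM in barcodes of 10 to 100 UMIs (log scale) in each library, with granulocyte-marker barcodes (filled) and without them (open). Lyz2, Fcnb, hemoglobin and Csf1r lie between 0.118 and 0.314, the S100a8 ratio of MSC-i.v falls to 0.057 without granulocyte-marker barcodes, and Cd3e lies above 1.

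The proportions between members also differed between populations. The number of Lyz2 UMIs per Fcnb UMI in Fn1/Vcan-high monocytes was 12.95 in MSC-i.t, 12.5 in MSC-i.v, 14.7 in SCI and 11.2 in Sham. In T cells it was 16.1 in MSC-i.t, 15.6 in MSC-i.v, 20.5 in SCI and 13.4 in Sham, and in barcodes of 10 to 100 UMIs 26.0 in MSC-i.t, 28.4 in MSC-i.v, 27.9 in SCI and 27.5 in Sham. The T cells as gated lay nearer to the Fn1/Vcan-high monocytes than to the barcodes of 10 to 100 UMIs in each library. Only 13.6% of their Fcnb UMIs in MSC-i.t, 14.7 in MSC-i.v, 24.9 in SCI and 16.6 in Sham sat in barcodes outside the monocyte and granulocyte-marker rules. With the other-lineage barcodes named above left out, Lyz2 kept 2693 UMIs in MSC-i.t, 4654 in MSC-i.v, 2136 in SCI and 5106 in Sham. Fcnb then kept 149 in MSC-i.t, 186 in MSC-i.v, 68 in SCI and 256 in Sham. By these counts the T cells lay nearer to the Fn1/Vcan-high monocytes only in MSC-i.t. In MSC-i.v, SCI and Sham they lay nearer to the barcodes of 10 to 100 UMIs. The number of S100a8 UMIs per Fcnb UMI was 0.366 in MSC-i.t, 0.195 in MSC-i.v, 0.167 in SCI and 0.393 in Sham in Fn1/Vcan-high monocytes. In barcodes of 10 to 100 UMIs it was 1.70 in MSC-i.t, 2.02 in MSC-i.v, 0.636 in SCI and 2.89 in Sham. Relative to Fcnb, S100a8 was higher in the barcodes of 10 to 100 UMIs than in the monocytes in all 4 libraries, including MSC-i.t and SCI, which held 0 granulocyte-marker barcodes.

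The counts of Camp, Lcn2, Ngp, Mmp8 and Pglyrp1 in T cells of MSC-i.v and Sham came mostly from granulocyte-marker barcodes. Camp stood at 0.329 CPM in MSC-i.t, 11.4 in MSC-i.v, 0.159 in SCI and 30.0 in Sham in T cells. Without granulocyte-marker barcodes it was 0.329 CPM in MSC-i.t, 1.20 in MSC-i.v, 0.159 in SCI and 0.592 in Sham. Lcn2 had 67 UMIs in T cells of MSC-i.v and 293 in Sham and was at 0 in the other 2 libraries, and 3 remained in each of MSC-i.v and Sham without those barcodes. Ngp had 369 UMIs in MSC-i.v and 312 in Sham, of which 14 remained in MSC-i.v and 7 in Sham. Mmp8 had 1 UMI in MSC-i.t, 91 in MSC-i.v, 5 in SCI and 51 in Sham, and Pglyrp1 had 15 in MSC-i.t, 97 in MSC-i.v, 27 in SCI and 120 in Sham. Without those barcodes Pglyrp1 had 15, 10, 27 and 17 UMIs in the same libraries, so that MSC-i.v and Sham no longer stood above the others. Of the Pglyrp1 UMIs of T cells, 15 of 15 in MSC-i.t and 26 of 27 in SCI sat outside the monocyte and granulocyte-marker rules.

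Between libraries, SCI against Sham is the comparison of injury with sham, in 1 library each, and in Fn1/Vcan-high monocytes it set the alarmins apart from Fcnb and Lyz2 in size. Of 6 members with enough UMIs, 2 were past 2-fold, both lower in SCI, with 13.6% of all genes past 2-fold and 5.7% lower. The log2 ratio was -1.76 (95% interval -1.91 to -1.61) for S100a8 and -1.79 (95% interval -1.98 to -1.62) for S100a9. Without the top barcode of each library it was -2.36 and -3.50. Fcnb at -0.52 (95% interval -0.59 to -0.46), Lyz2 at -0.13 (95% interval -0.15 to -0.11) and Camp at -0.33 (95% interval -1.08 to 0.34) were inside 2-fold. The median over all genes was 0.11. In barcodes of 10 to 100 UMIs the S100a8 ratio was -3.77 and the S100a9 ratio -3.60, so the level in these barcodes was lower in SCI too. With free RNA subtracted in proportion to hemoglobin, the count of members past 2-fold in Fn1/Vcan-high monocytes was again 2.

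For Fn1/Vcan-low monocytes of SCI against Sham, 3 of 5 members were past 2-fold, all lower, where 11.7% of all genes were past it in either direction and 3.44% were lower. Sham held a granulocyte-marker barcode there and SCI held none, and without it the same 3 members were lower. In T cells 10 of 10 were past 2-fold, with 9 lower and Ltf higher, where 12.3% of all genes were, 6.05% lower and 6.27% higher. The Ltf ratio was 1.59 (95% interval 0.83 to 2.42) on 61 UMIs in SCI and 19 in Sham. With granulocyte-marker barcodes left out, 6 of 8 members were past 2-fold in T cells, 5 lower and Ltf higher.

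MSC-i.t against SCI, the comparison of intrathecal cells with injury alone, had 2 of 6 members past 2-fold in Fn1/Vcan-high monocytes, both higher in MSC-i.t, where 13% of all genes were past it and 5.1% were higher. The log2 ratio was 1.37 (95% interval 1.22 to 1.53) for S100a8 and 1.50 (95% interval 1.31 to 1.69) for S100a9, and 1.85 and 2.94 without the top barcodes. Fcnb (0.24), Lyz2 (0.05) and Camp (-0.37) were inside 2-fold. In barcodes of 10 to 100 UMIs the S100a8 ratio was 1.99 and the S100a9 ratio 1.82. Among Fn1/Vcan-low monocytes 1 of 4 members was past 2-fold (11.3% of all genes, 2.52% higher), S100a8, on 12 UMIs of MSC-i.t and 2 of SCI. In T cells 3 of 7 were (9.88% of all genes, 3.1% higher and 6.78% lower): Fcnb and Camp were higher and Pglyrp1 lower in MSC-i.t. Set against Sham in place of SCI, MSC-i.t had 0 of 7 members past 2-fold in Fn1/Vcan-high monocytes (6.9% of all genes), 3 of 5 lower in Fn1/Vcan-low monocytes (3.46% of all genes lower) and 9 of 10 lower in T cells (3.44% lower). With granulocyte-marker barcodes left out, again 3 of 5 were lower in Fn1/Vcan-low monocytes, and 4 of 7 in T cells: S100a8, S100a9, Fcnb and Lyz2.

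MSC-i.v against SCI, the comparison of intravenous cells with injury alone, had 0 of 6 members past 2-fold in Fn1/Vcan-high monocytes, where 12.3% of all genes were. The log2 ratio there was 0.39 (95% interval 0.23 to 0.54) for S100a8 and 0.05 (95% interval -0.14 to 0.25) for S100a9. Without the top barcodes both passed 2-fold, at 1.08 and 1.67, with the SCI barcode of 203 S100a9 UMIs no longer counted. Among Fn1/Vcan-low monocytes 8 of 9 were past 2-fold, all higher in MSC-i.v, where 11.8% of all genes were past it in either direction and 2.88% were higher. Without granulocyte-marker barcodes 3 were. In T cells 10 of 10 were (11.6% of all genes, 5.17% higher and 6.47% lower), with 9 higher and Ltf lower. Without granulocyte-marker barcodes 8 of 9 members were past 2-fold in T cells, 6 higher and 2 lower. S100a9 was then inside 2-fold, and Pglyrp1 was lower, with 10 UMIs in MSC-i.v against 27 in SCI. In barcodes of 10 to 100 UMIs the S100a8 ratio was 2.76 and the S100a9 ratio 2.50. Set against Sham, MSC-i.v had 2 of 6 members lower in Fn1/Vcan-high monocytes (2.93% of all genes lower), S100a8 at -1.37 and S100a9 at -1.74, 6 of 9 higher in Fn1/Vcan-low monocytes (2.13% higher) and 2 of 10 lower in T cells (2.47% lower), Camp and Lcn2. Without granulocyte-marker barcodes 1 of 5 was higher in Fn1/Vcan-low monocytes, S100a9. In T cells Camp was then higher, at 1.20 CPM in MSC-i.v against 0.592 in Sham, and S100a8 and S100a9 were lower. Lcn2 kept 3 UMIs in each library. The 2 MSC comparisons share the SCI library, and those with Sham share the Sham library. Doses differed between MSC-i.t and MSC-i.v, so these 2 groups were not compared with each other.

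**Figure D5:**
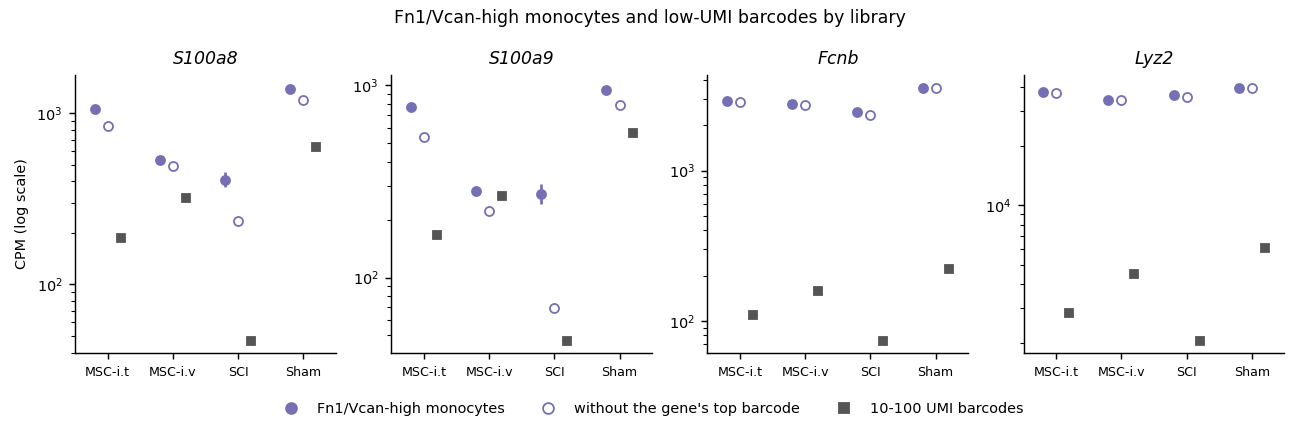
CPM (log scale) of S100a8, S100a9, Fcnb and Lyz2 by library in Fn1/Vcan-high monocytes with exact Poisson 95% intervals (filled), the same without the gene's top barcode (open), and in barcodes of 10 to 100 UMIs (squares). SCI S100a9 falls to 69.7 CPM without 1 barcode, while Fcnb and Lyz2 change little.

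Genes of the same pathways were read beside the members. Of 5 primary granule genes, 0 had enough counts to be tested, and Mpo, Elane, Prtn3 and Ctsg together were at most 1.68 CPM in monocytes, at most 0.345 CPM in T cells and 6.70 CPM in the barcodes of 10 to 100 UMIs of SCI, where 1 UMI is 6.70 CPM. Of 16 other granule and mature neutrophil genes, 15 were in the files and 7 were tested. Mmp9, Cd177, Olfm4, Padi4, Retnlg, Cxcr2, Cxcr1 and Il1r2 did not pass the filter on low counts. The 7 that passed had at least 1 population high enough to enter, so their counts do not speak for the genes left out. All 7 were higher in Fn1/Vcan-high than in Fn1/Vcan-low monocytes (edgeR, adjusted; background 18.6%), led by Slpi, a secreted protease inhibitor, at 4.91 ± 0.23, Hp, haptoglobin, at 4.82 ± 0.21, and Trem1, an amplifier of inflammatory signals, at 2.70 ± 0.16. The other 4 were Chi3l1 at 1.77 ± 0.21, the G-CSF receptor gene Csf3r at 1.22 ± 0.16, and the NADPH oxidase subunit genes Cybb at 0.84 ± 0.17 and Cyba at 0.55 ± 0.10. Against barcodes of 10 to 100 UMIs all 7 were higher in Fn1/Vcan-high monocytes, where 30.4% of all genes were. All 7 were lower in T cells, where 17.8% of all genes were. Fn1/Vcan-low monocytes had 4 of them higher than in barcodes of 10 to 100 UMIs (26.3% of all genes) and 2 lower (18.5%). The lower genes were Slpi at -1.90 ± 0.33 and Hp at -2.15 ± 0.32, and Trem1 at 0.34 ± 0.33 did not pass.

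Of 5 regulators of granule genes 4 passed the same filter and were tested, all but Gfi1. Of these, 2 were higher in Fn1/Vcan-high than in Fn1/Vcan-low monocytes, where 18.6% of all genes were higher and 22% lower. These were Cebpa by 0.59 ± 0.16 and Cebpd by 0.81 ± 0.15 on the log2 scale. Cebpe at -0.30 ± 0.17 and Spi1, which encodes PU.1, at 0.02 ± 0.18 did not pass. All 4 were higher in both kinds of monocytes, and lower in T cells, than in barcodes of 10 to 100 UMIs. Of all genes, 30.4% were higher in Fn1/Vcan-high monocytes, 26.3% higher in Fn1/Vcan-low monocytes and 17.8% lower in T cells. Of 10 alarmin and receptor genes 6 were tested, and Hmgb2, Il1a, Il33 and Ager did not pass the filter. Cd14, the co-receptor of TLR4, at 3.93 ± 0.24 and Anxa1, annexin A1, at 2.94 ± 0.19 were higher in Fn1/Vcan-high monocytes, Hmgb1 was lower at -0.50 ± 0.13, and Tlr4 at 0.08 ± 0.25, Tlr2 at 0.12 ± 0.16 and S100a11 at -0.10 ± 0.17 did not pass. Against barcodes of 10 to 100 UMIs, 5 of the 6 were higher (30.4% of all genes) and Hmgb1 was lower (22.5%) in Fn1/Vcan-high monocytes. In T cells 5 were lower (17.8% of all genes) and Hmgb1, at -0.02 ± 0.17, did not pass.

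The genes most like each member were taken by Pearson correlation of log2(CPM + 1) over 16 values, the 4 populations of 4 libraries, among 9694 genes. The 16 values share libraries and depth, so the correlations are descriptions. For Fcnb these were Anxa1 at 0.987, Hp at 0.978 and Prdx5 at 0.977. For Lyz2 they were Mcemp1 at 0.997, S100a6 at 0.997 and Mnda at 0.995. For S100a9, leaving aside members, they were Gapt at 0.836, LOC680254 at 0.833 and Apoe at 0.826.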

How the data were processed

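Rat blood was measured by droplet single-cell RNA-seq in 1 library each of MSC-i.t, MSC-i.v, SCI and Sham. The authors deposited raw UMI counts from Cell Ranger 4, per the file headers, for 25340 genes and 6794880 barcodes a library, before any calling of cells. Per the submitters' processing notes the reads went to mRatBN7.2. A bulk poly(A) protocol given in the labels was not used, since the matrices are of single cells.

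The members, gene lists and tests were chosen with earlier results of these data known. Barcodes with at least 500 UMIs, 200 genes and at most 20% mitochondrial UMIs were kept (Python 3.11.15, numpy 2.4.6, scipy 1.17.1, pandas 2.3.3). UMIs were summed per library and population and given as CPM. Exact Poisson intervals on CPM and exact conditional binomial intervals on ratios (95%) cover counting error only. The floor for a count of 0 is 3 counts. Population sums were tested with edgeR 4.0.16 in R 4.3.3 (quasi-likelihood, TMM, filterByExpr, library as a block, adjusted p under 0.05) over the 4 libraries and populations. The library pairs the populations, since all come from the same library. Ratios between libraries were counted as past 2-fold at a log2 ratio of 1 or more in size, among genes with at least 10 UMIs over both libraries, with no test; a library at 0 was set to the floor. Shares across depths were compared after thinning to 1000 UMIs, and shallower barcodes were left out. No doublet caller was run, and leaving out the 5% of barcodes with most UMIs stands in for it.

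Named genes are all members, pathway genes with at least 50 UMIs in monocytes, and the 3 genes most like S100a9, Fcnb and Lyz2 outside members and gating genes; other genes were named after their values were seen. Alternatives were DESeq2 1.42.0, other size factors, filters, gates, low-barcode ranges and scalings, and leaving out each library. Leaving out granulocyte-marker barcodes, low barcodes of 1 to 9 UMIs, and leaving out each member's top barcode were chosen after seeing the data. Leaving out barcodes with Csf3r and Cxcr2 removed mostly monocytes. The edgeR step was tested on simulated data. Promoters and motifs came from RefSeq tables of GRCr8, and 9 of 10 members matched by symbol.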

Additional observations from a re-analysis of the deposited data

Results flagged for a closer look

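Each result here had a log2 ratio below 0 in 1 population and above 0 in another, under the same pair of libraries. These differences rest on 1 library per group, and the difference between populations was not tested.

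Fcnb in MSC-i.t over SCI had a log2 ratio of 0.24 in Fn1/Vcan-high monocytes, -0.66 in Fn1/Vcan-low monocytes and 1.04 in T cells. Lyz2 in MSC-i.v over SCI had a log2 ratio of -0.0747 in Fn1/Vcan-high monocytes, 0.48 in Fn1/Vcan-low monocytes and 1.67 in T cells. The Lyz2 value in Fn1/Vcan-high monocytes is near 0 and lies above the median over all genes there, -0.126. In barcodes of 10 to 100 UMIs the Fcnb ratio was 0.57 in MSC-i.t over SCI and the Lyz2 ratio was 1.12 in MSC-i.v over SCI. The T cell rule also kept barcodes of monocytes, so these populations share barcodes. Of the Fcnb UMIs of T cells, 13.6% in MSC-i.t and 24.9% in SCI sat outside the monocyte and granulocyte-marker rules. For Lyz2 it was 18.9% in MSC-i.v and 30.7% in SCI. The part of free RNA and of shared barcodes in these differences was not tested.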

How the results depend on the processing

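Of 283 alternative values of 17 counts of members, 238 stayed within 1.5 times and 45 did not; the causes were not tested unless named. Without the replicate block (no library term), 3 members were higher and 0 lower in Fn1/Vcan-high over Fn1/Vcan-low monocytes, 2 higher and 0 lower in Fn1/Vcan-high monocytes over barcodes of 10 to 100 UMIs, 0 higher and 1 lower in Fn1/Vcan-low monocytes over them, and 0 higher and 2 lower in T cells over them. Ngp as the 1 lower member in Fn1/Vcan-high over Fn1/Vcan-low monocytes was lost (0) with Csf1r of at least 2, without granulocyte-marker barcodes, with only the 2 populations compared and under DESeq2, and the count was 3 with genes of any count. Against barcodes of 10 to 100 UMIs it was 0 with barcodes of 20 to 50 UMIs, without granulocyte-marker barcodes, with only the 2 populations compared and under DESeq2, and 3 with genes of any count. Leaving out 1 library gave 0 to 2 members lower in both contrasts. For Fn1/Vcan-low monocytes over barcodes of 10 to 100 UMIs the higher count was 2 with only the 2 populations compared, 0 under DESeq2 and 0 to 1 leaving out 1 library. With barcodes of 20 to 50 UMIs, which held only 8873 to 19902 UMIs per library, 0 members were lower in Fn1/Vcan-low monocytes and 1 in T cells.

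For SCI over Sham, subtracting free RNA left 1 member past 2-fold in Fn1/Vcan-low monocytes, and leaving out granulocyte-marker barcodes left 6 in T cells. For MSC-i.t over SCI in Fn1/Vcan-low monocytes the count was 0 without other-lineage barcodes, with at least 50 UMIs and with free RNA subtracted, and 2 with Fn1 and Vcan of at least 3; in T cells it was 1 with at least 50 UMIs. With Sham in place of SCI, MSC-i.t had 0 in Fn1/Vcan-high monocytes, 3 in Fn1/Vcan-low monocytes and 9 in T cells, and MSC-i.v had 2 in Fn1/Vcan-high monocytes and 2 in T cells. For MSC-i.v over SCI in Fn1/Vcan-high monocytes the count was 1 with Fn1 and Vcan of at least 1, 2 without the top 5% of barcodes and 2 without each member's top barcode. Among Fn1/Vcan-low monocytes it was 3 with Csf1r of at least 2, 3 without granulocyte-marker barcodes, 5 with at least 50 UMIs and 3 without each member's top barcode, and in T cells 6 with free RNA subtracted. Depth limits Camp, Ngp, Lcn2, Mmp8, Pglyrp1 and Ltf in monocytes to few UMIs, and the SCI barcodes of 10 to 100 UMIs, where S100a8 rests on 7 UMIs.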
